A study of Homo sapiens with 2 samples.

Results

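The 10 genes described here, CD33 and SIGLEC5 to SIGLEC12 and SIGLEC14, encode Siglecs, cell-surface receptors that bind sialic acid. They were chosen by name among the 35812 gene symbols for which reads of H3K9me3 chromatin were counted, and all 10 were found, each with 1 gene interval. Chromatin of the near-haploid line KBM7, grown from a chronic myeloid leukemia, was fixed with 1% formaldehyde, sheared to a target of 300 bp and precipitated with the antibody ab8898 against H3K9me3 or with IgG. There is 1 library of each, and the values below are those of the H3K9me3 library, since the IgG library was not analysed here. No value has a replicate or a control beside it, so no test of a difference was possible and the cells' identity could not be checked by expression.

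H3K9me3, trimethylated lysine of histone H3, marks compact and silenced chromatin and is dense over tandem zinc finger genes. Siglecs carry an outer immunoglobulin-like domain that binds sialic acid, and most of them signal through tyrosine motifs that recruit the phosphatases PTPN6 and PTPN11 and dampen the cell's response. They are mostly receptors of leukocytes: CD33 is a marker of myeloid cells and a target of antibody therapy in acute myeloid leukemia. The genes arose by duplication and stand in a cluster on the long arm of chromosome 19, before a large array of zinc finger genes.

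The sequences around the gene starts were alike in a few pairs of these copies. Windows of 300 bases, from 250 before to 50 after the start, were taken from RefSeq on GRCh38.p14, where all 10 genes had at least 1, and the first listed was used. In the CD33 window the capitals mark TTCCTC, the reverse complement of GAGGAA, a sequence found in sites for ETS factors such as the myeloid regulator SPI1.
CD33 (chr19:51224830-51225129, + strand): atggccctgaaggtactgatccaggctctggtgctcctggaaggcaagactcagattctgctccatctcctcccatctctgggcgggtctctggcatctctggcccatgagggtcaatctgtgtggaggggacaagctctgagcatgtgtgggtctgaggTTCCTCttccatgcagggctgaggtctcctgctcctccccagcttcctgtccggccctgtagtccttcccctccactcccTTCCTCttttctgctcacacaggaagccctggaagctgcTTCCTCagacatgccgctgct
SIGLEC9 and SIGLEC8 are shown because their windows are alike whereas their H3K9me3 values below are not, and the capitals mark their longest identical run.
SIGLEC9 (chr19:51124630-51124929, + strand): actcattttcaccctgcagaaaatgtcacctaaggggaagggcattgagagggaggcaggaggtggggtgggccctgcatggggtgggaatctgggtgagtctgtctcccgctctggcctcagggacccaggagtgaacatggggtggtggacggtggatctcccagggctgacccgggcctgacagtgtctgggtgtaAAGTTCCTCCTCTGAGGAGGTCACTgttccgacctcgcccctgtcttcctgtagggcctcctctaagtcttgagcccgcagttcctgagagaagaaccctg
SIGLEC8 (chr19:51458405-51458704, - strand): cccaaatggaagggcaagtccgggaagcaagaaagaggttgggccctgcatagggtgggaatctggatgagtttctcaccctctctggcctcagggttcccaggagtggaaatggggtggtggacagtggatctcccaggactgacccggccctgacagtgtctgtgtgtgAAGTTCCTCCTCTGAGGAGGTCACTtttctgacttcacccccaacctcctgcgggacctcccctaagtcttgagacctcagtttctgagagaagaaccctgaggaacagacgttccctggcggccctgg
SIGLEC5 and SIGLEC14 are shown because their sequence bears on where reads can be placed, and the capitals again mark the longest identical run.
SIGLEC5 (chr19:51630352-51630651, - strand): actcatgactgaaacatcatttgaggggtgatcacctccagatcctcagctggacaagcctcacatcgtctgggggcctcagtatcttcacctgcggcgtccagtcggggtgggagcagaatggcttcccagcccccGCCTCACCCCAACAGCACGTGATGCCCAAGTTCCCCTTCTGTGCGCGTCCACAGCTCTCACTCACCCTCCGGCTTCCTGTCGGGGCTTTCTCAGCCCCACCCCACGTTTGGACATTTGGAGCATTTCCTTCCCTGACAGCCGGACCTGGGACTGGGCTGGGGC
SIGLEC14 (chr19:51646776-51647075, - strand): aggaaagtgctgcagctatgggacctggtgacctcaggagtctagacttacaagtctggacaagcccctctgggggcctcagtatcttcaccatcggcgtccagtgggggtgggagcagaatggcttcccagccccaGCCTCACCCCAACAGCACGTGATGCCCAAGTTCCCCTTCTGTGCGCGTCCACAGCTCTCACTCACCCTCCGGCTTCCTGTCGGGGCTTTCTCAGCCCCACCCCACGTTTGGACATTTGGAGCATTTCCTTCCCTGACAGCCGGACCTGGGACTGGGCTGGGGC
Aligned end to end, the windows of SIGLEC5 and SIGLEC14 were 87.1% identical with an unbroken run of 163 bases, those of SIGLEC8 and SIGLEC12 79.9%, those of SIGLEC9 and SIGLEC12 72.0%, and those of SIGLEC9 and SIGLEC8 70.1%, with a run of 25 bases. The median over the 45 pairs was 52.9%, only these 4 pairs exceeded 65%, and unrelated windows were not compared. Identity from end to end can miss shared stretches: SIGLEC9 and SIGLEC7 had 47.6%, with a run of 40 bases. The windows held 3 to 13 CG dinucleotides, 3 in CD33 and 13 in SIGLEC6, all under the median of 14 over 35116 windows. GAGGAA, searched on both strands and with no match overlapping another, was found in 6 of the 10 windows, and in 27.9% of all windows. It was present in those of CD33, SIGLEC6, SIGLEC7, SIGLEC8, SIGLEC9 and SIGLEC12, and CD33 held 3 matches. These are matches of letters only, and the windows were not placed on the hg19 coordinates of the peaks.

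H3K9me3 was uneven across the Siglec genes. SIGLEC7, SIGLEC9 and CD33 had the highest scores and 36.3% to 39.5% of their length in peaks. By their whole counted intervals 6 genes scored 28.8 to 45.1 reads per kb with at most 7.69% in peaks. The lowest of these 6, SIGLEC5, has an interval that takes in a nearly empty stretch. SIGLEC14 had almost no reads. The gene score is the number of reads in the gene interval divided by its length in kb. Its median was 39.1 reads per kb over the 10 genes and 43.5 over all symbols. Over the symbols of chromosome 19 it was 40.8, and over the protein-coding ones among them 32.0. By summed reads over summed length the 10 genes held 51.1 reads per kb (95% exact Poisson interval 50.03 to 52.204, which like all intervals here covers counting error only). The score lay above the median of all symbols in 4 of the 10 genes, against 42.0% of the protein-coding symbols of chromosome 19. The count is 5 when SIGLEC5 is scored outside a nearly empty stretch of its interval, at 54.2 to 54.4 reads per kb. The score lay above the 90th percentile of all symbols in 0 of the 10 genes, against 10.0% of all symbols. A peak overlapped 4 of the 10 genes by 1 bp or more, and 36.8% of all symbols and 40.7% of those of chromosome 19, so the share with a peak was near that background. SIGLEC7, SIGLEC9 and CD33 were grouped after their values were seen. A cover of 10% or more was found in 3 of the 10 genes, and in 17.2% of all symbols and 32.9% of those of chromosome 19.

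**Figure D1:**
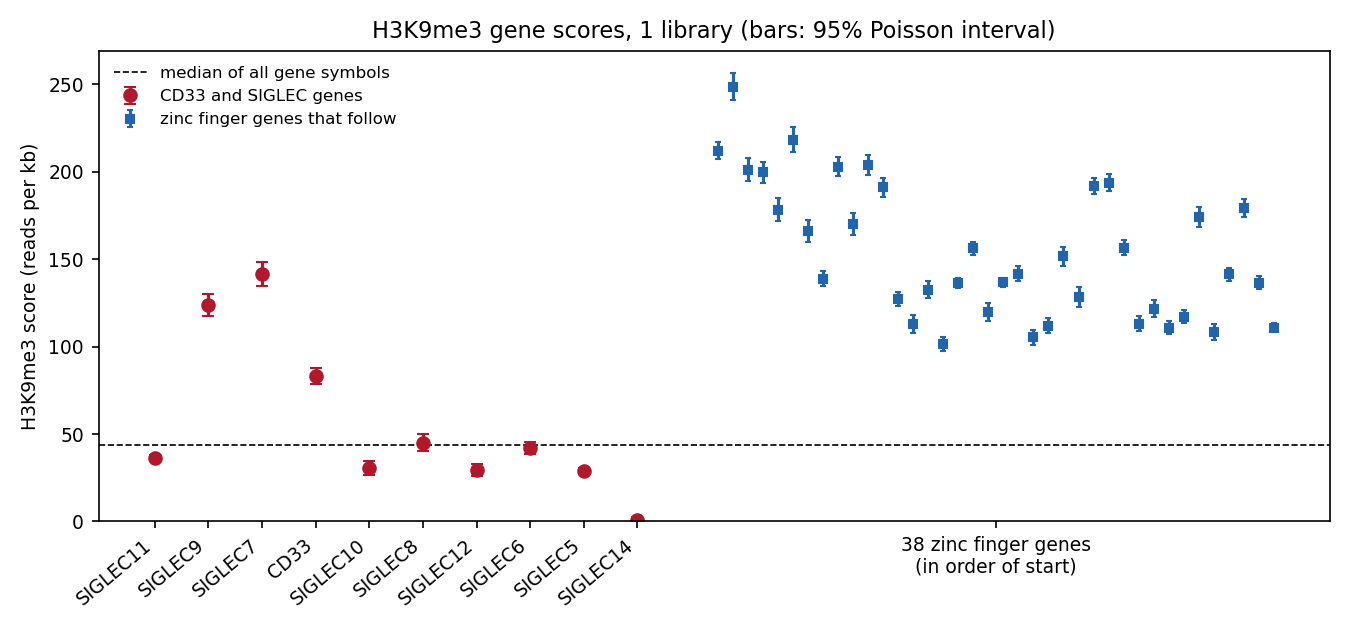
H3K9me3 score in reads per kb (y axis) of CD33 and the SIGLEC genes (red circles, in chromosomal order) and of the 38 zinc finger genes that follow (blue squares), with 95% Poisson intervals as bars, and the median of all symbols as a dashed line. SIGLEC9, SIGLEC7 and CD33 stand at 124, 141 and 83.0 reads per kb, and the other 7 Siglec genes at 45.1 or less, against 101 to 249 for the zinc finger genes. SIGLEC5 is drawn by its whole counted interval, and outside the nearly empty stretch of it would stand at 54.2 to 54.4.

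SIGLEC7, an inhibitory receptor of natural killer cells, had the highest score. Its interval at 51645558 to 51656783 of chromosome 19 (hg19, plus strand) held 1588 reads over 11.2 kb, a score of 141 (135 to 149), which was above 89.5% of all symbols. A single peak of 6600 bp, at 51652351 to 51658950, covered its last 39.5%, from 60.5% of the gene body to its end, and ran on past the gene. The nearest peak before the start ended 1608 bp upstream, and 52.5% of the 10 kb upstream lay in peaks.

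SIGLEC9, an inhibitory receptor of neutrophils and monocytes, lies next to SIGLEC7 at 51628165 to 51639520 (plus strand) and came second. It held 1405 reads over 11.4 kb, a score of 124 (117 to 130.4). RefSeq gives SIGLEC9 a length of 16.5 kb, longer than this interval. The 2 peaks of SIGLEC9 lay at both ends of the interval, one of 1950 bp from 4.28% to 21.5% of it and one of 3300 bp from 78.2% to its end. The first began 486 bp after the start. Together they covered 38.9% of the interval, and 67.4% of the 10 kb upstream lay in peaks. Both genes scored above a set of 36 genes of chromosome 19 of 5 to 50 kb that had 30% to 45% of their length in peaks. That set left out the 10 Siglec genes and those with a ZNF or ZFP number. Scores of those 36 had a median of 87.3 and ran from 58.8 to 122. The highest of them lies inside the Poisson interval of SIGLEC9 and below that of SIGLEC7. Zinc finger genes of that size and cover lay on both sides of SIGLEC9. ZNF780A scored 132 with 41.4% in peaks, and ZNF793 scored 118 with 43.5%.

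CD33 was next, with its peaks in the second part of the counted interval and none called at the start. The interval at 51728320 to 51743274 (plus strand) held 1242 reads over 14.96 kb, a score of 83.0 (78.5 to 87.8), which was above 77.7% of all symbols and above 41.7% of the same 36 genes. It was overlapped by 4 peaks that covered 36.3% of it. The widest, 3300 bp at 51734251 to 51737550, began 5931 bp after the start and spanned 39.7% to 61.7% of the body. The next 2, of 1350 and 450 bp, spanned 63.7% to 72.8% and 76.8% to 79.8%, and the last, of 600 bp, began at 97.8%. The first 39.7% of the interval, with the start, held no peak, and the nearest one upstream ended 1870 bp before the start. RefSeq gives CD33 a length of 28.9 kb, longer than the interval counted here, so these positions hold for the interval only. Reads were given only as a sum over the interval, so signal at the start was not measured.

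SIGLEC10, SIGLEC8, SIGLEC12 and SIGLEC6 follow on the minus strand, and no peak overlapped any of them. SIGLEC8, a receptor of eosinophils and mast cells at 51954101 to 51961708, held 343 reads over 7.61 kb, a score of 45.1 (40.4 to 50.1). SIGLEC6, known from the placenta and mast cells, lies at 52022779 to 52035110 and held 516 reads over 12.3 kb, a score of 41.8 (38.3 to 45.6). The intervals of these 2 scores overlap, and both lie around the median of all symbols. SIGLEC10, an inhibitory receptor found on B cells, lies at 51913275 to 51921057 and held 238 reads over 7.78 kb, a score of 30.6 (26.8 to 34.7). A pair of noncoding intervals overlap it on the other strand and share its reads. SIGLEC12, which in humans has lost its sialic acid binding, lies at 51994618 to 52005043 and held 304 reads over 10.4 kb, a score of 29.2 (25.97 to 32.6). The nearest peaks ended 1908 bp before the start of SIGLEC12, 2741 bp before that of SIGLEC6 and 9694 bp before that of SIGLEC10, and for SIGLEC8 the nearest began 10558 bp beyond the start, past the end of the gene.

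These 4 genes lay above most other genes of chromosome 19 without a peak, as did some other genes of their window. They were set beside genes of chromosome 19 of 5 to 50 kb other than the 10 Siglec genes and those with a ZNF or ZFP number. Of that set 589 had no peak, and their median score was 19.9 reads per kb (25th to 75th percentile 15.1 to 29.2). Siglec genes outside the 10, such as CD22 and MAG, are among the 589. SIGLEC8 and SIGLEC6 scored above 90.7% and 89.6% of the 589, and SIGLEC10 and SIGLEC12 above 77.4% and 74.7%. Genes of the same window without a peak lay on both sides of these 4. VSIG10L, CEACAM18 and C19orf75 scored higher, at 50.5, 60.0 and 75.6, and ETFB, NKG7 and CLDND2 lower, at 22.9, 12.0 and 9.97. Among the 10 genes, SIGLEC11 and SIGLEC14 also had no peak and scored above 84.6% and 0.340% of the 589, though their own intervals fall outside that range of length.

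SIGLEC5 and SIGLEC14 are a pair of an inhibitory and an activating receptor of neutrophils and monocytes. Their counted intervals share a stretch that was almost without reads. SIGLEC14, which signals through the adaptor TYROBP, held 4 reads over 4.23 kb at 52145823 to 52150054 (minus strand), a score of 0.945 (0.258 to 2.42), and no peak. SIGLEC5, at 52114781 to 52150151 on the same strand, held 1019 reads over 35.4 kb, a score of 28.8 (27.1 to 30.6). Its interval contains that of SIGLEC14 and that of AC018755.13, a stretch of 15.4 kb at 52133354 to 52148798 with 3 reads, a score of 0.194 (0.0401 to 0.568). SIGLEC14 and AC018755.13 together span 16.7 kb and hold at most 7 reads. The remaining 18.7 kb of the SIGLEC5 interval then hold 1012 to 1015 reads, 54.2 to 54.4 reads per kb. The deposited score therefore averages a part with reads and a nearly empty part. The single peak of SIGLEC5, 3000 bp at 52114501 to 52117500, covered the last 7.69% of its interval.

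Both nearly empty intervals were unusual for chromosome 19: of its 1280 intervals of 4 kb or more, 3 scored under 2 reads per kb, the other being AC008993.1. RefSeq gives SIGLEC5 a length of 19.4 kb, shorter than the 35.4 kb counted here, and SIGLEC14 7.35 kb. The RefSeq start windows of these genes lie apart on GRCh38.p14, at 51630352 to 51630651 for SIGLEC5 and 51646776 to 51647075 for SIGLEC14. The counted intervals instead start almost together on hg19, at 52150151 and 52150054. The nearly empty part may therefore lie before the RefSeq start of SIGLEC5, but positions were not carried from one build to the other. SIGLEC14 is known to be deleted in part of the human population, and it shares long identical runs with SIGLEC5. Whether the stretch is missing from these cells, could not be read because of its copies, or lacks the mark was not tested.

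SIGLEC11, a receptor of macrophages and microglia, lies apart from the cluster, at 50412758 to 50464429 (minus strand), outside the window from 51600001 to 52200000 that holds the other 9 genes. Its interval of 51.7 kb held 1874 reads, a score of 36.3 (34.6 to 37.9), and no peak. The interval is longer than the 12.2 kb of the gene in RefSeq and overlaps IL4I1, NUP62, ATF5 and a U3 RNA interval, so its score is shared with those genes. A peak of 750 bp at 50464501 to 50465250 ended 72 bp before its start. A peak within 1 kb of the start was found for 2 of the 10 genes, SIGLEC9 and SIGLEC11, and for 14.2% of all symbols and 22.5% of those of chromosome 19. Within 2 kb it was found for 5, with SIGLEC7, CD33 and SIGLEC12 added, and for 18.5% of all symbols. Without peaks narrower than 900 bp it was found within 1 kb for SIGLEC9 only, 1 of the 10 genes. The shares were then 11.6% of all symbols and 20.8% of those of chromosome 19.

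**Figure D2:**
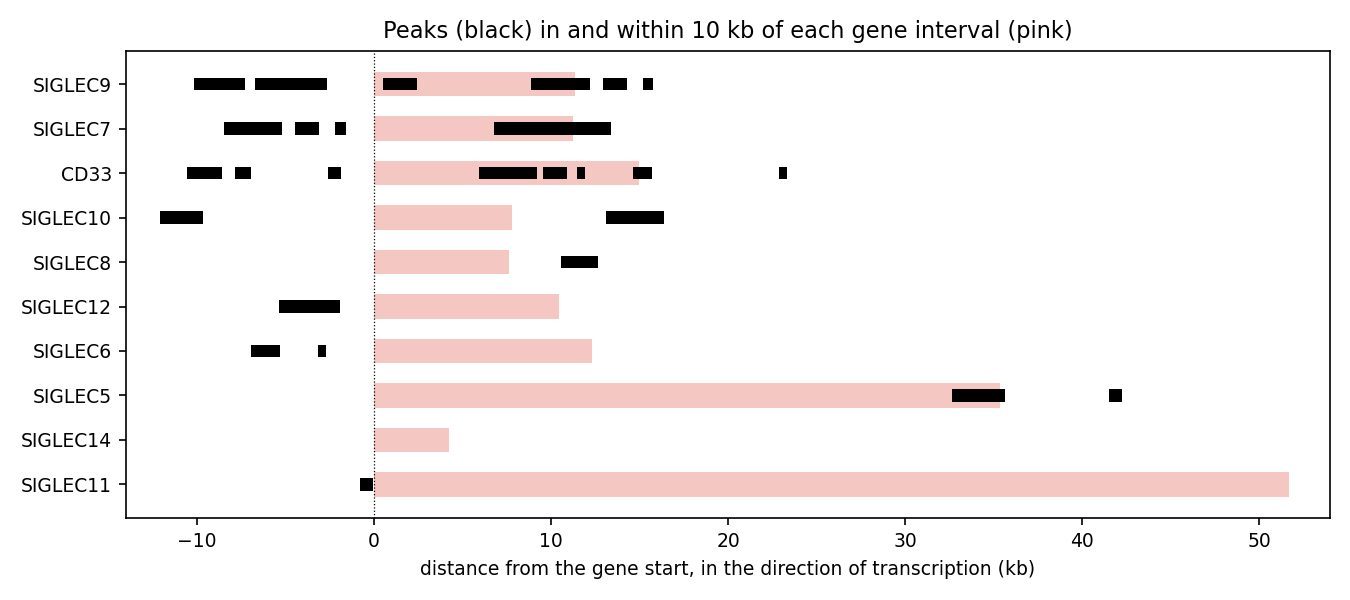
Peaks (black) within and up to 10 kb around each gene interval (pink), by distance in kb from the gene start in the direction of transcription, 1 row per gene. SIGLEC7 and CD33 carry their peaks in the second part of the interval, SIGLEC9 at both ends and SIGLEC5 in its last 7.69%. SIGLEC10, SIGLEC8, SIGLEC12, SIGLEC6, SIGLEC14 and SIGLEC11 hold none.

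In order of deposited score the genes ran SIGLEC7, SIGLEC9, CD33, SIGLEC8, SIGLEC6, SIGLEC11, SIGLEC10, SIGLEC12, SIGLEC5 and SIGLEC14. Neighbours in this order whose Poisson intervals overlap are SIGLEC8 and SIGLEC6, SIGLEC11 and SIGLEC10, SIGLEC10 and SIGLEC12, and SIGLEC12 and SIGLEC5. The largest step between neighbours other than that to SIGLEC14 was from CD33 to SIGLEC8, a ratio of 1.84. Outside its nearly empty stretch SIGLEC5, at 54.2 to 54.4 reads per kb, would rank 4 of 10, between CD33 and SIGLEC8. The step below CD33 would then be a ratio of 1.53, against 1.49 from SIGLEC9 to CD33. The 3 genes above this step are the 3 on the plus strand and the first 3 of the cluster, so strand and position cannot be told apart.

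Along the Siglec window, from 51600001 to 52200000, 53 peaks covered 18.2% of the sequence, close to the 17.8% of chromosome 19 as a whole. Peak width had a median of 1200 bp. Peaks covered 15.3% of the sequence in Siglec intervals and 20.7% of that outside any gene interval, which held 74.7 of the 108.9 kb in peaks. From SIGLEC9 to the end of CD33 25.8% lay in peaks, and from SIGLEC10 to the start of SIGLEC5 12.9%. The longest stretch without a peak, 55.8 kb at 51951151 to 52006950, held SIGLEC8, CEACAM18 and SIGLEC12 whole. Another of 49.4 kb, at 52117501 to 52166850, held SIGLEC14 and most of the counted SIGLEC5 interval. SIGLEC10 lay in one of 22.8 kb and SIGLEC6 in one of 27.45 kb. A stretch of 52.4 kb between CD33 and SIGLEC10 held VSIG10L, ETFB, CLDND2 and NKG7.

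The other genes between the Siglecs also differed among themselves. A peak overlapped 4 of the 20 other intervals of the window, and 13 had a score above the median of all symbols, 4 of them short RNA intervals. ZNF175, a zinc finger gene between SIGLEC6 and SIGLEC5, was the highest of those over 1 kb, at 137 (132 to 142), with 59.1% of its length in peaks, 1 of which spanned 11250 bp. LIM2, a lens membrane protein, scored 66.1 (60.6 to 72.0) with 33.6% in a peak, and IGLON5, a neuronal adhesion molecule, 68.1 (64.4 to 71.9) with 17.0%. SIGLECL1, a Siglec-like gene listed under its older name C19orf75 beside CD33, scored 75.6 (70.6 to 80.7) without a peak. Of the protein-coding genes there other than Siglecs, the lowest scores were those of NKG7, a granule protein of killer cells, at 12.0 (6.37 to 20.5) on 13 reads, CLDND2 at 9.97 (6.002 to 15.6) on 19 reads, and ETFB, a subunit of the mitochondrial electron transfer flavoprotein, at 22.9 (20.9 to 24.98). The short RNA intervals snoU13, MIR99B, MIRLET7E and MIR125A, of 0.104 kb or less, held 16, 10, 11 and 11 reads and no peak. Their scores were 154 (87.9 to 249.8), 143 (68.5 to 263), 139 (69.5 to 249) and 128 (63.9 to 229).

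**Figure D3:**
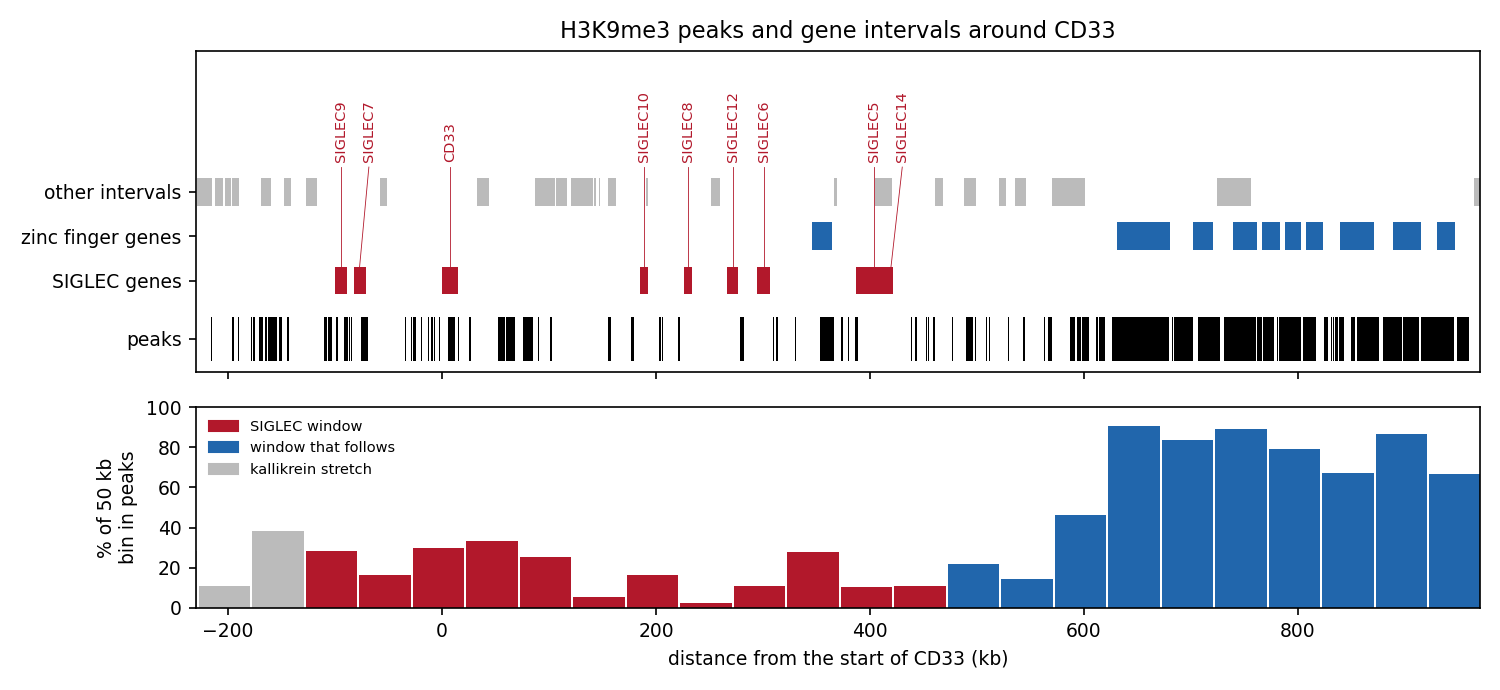
Peaks, Siglec genes, zinc finger genes and other intervals of 1 kb or more (upper panel) and the percent of each 50 kb bin in peaks (lower panel), by distance in kb from the start of CD33. The Siglec bins (red) hold 2.30% to 33.3% of their sequence in peaks, and most bins of the window that follows (blue) hold more, up to 94.3% over its whole length to 54100000.

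The zinc finger cluster that follows carried H3K9me3 over most of its sequence. Between 52200001 and 54100000 lie 38 genes with a ZNF or ZFP number, most of which encode DNA-binding repressors. The 10 Siglec genes had a median score of 39.1 reads per kb, against 142 in the 38 zinc finger genes, a ratio of 0.276. By summed reads the values were 51.1 and 151 reads per kb, a ratio of 0.339 (exact interval 0.332 to 0.347). This ratio depends on the long intervals of SIGLEC11 and SIGLEC5. Without SIGLEC5, SIGLEC14 and SIGLEC11 the Siglec value was 74.5 reads per kb. The zinc finger value was then 2.02 times the Siglec value, against 2.95 times with all 10 genes. A peak overlapped 4 of 10 Siglec genes and 38 of 38 zinc finger genes, and 2 of 10 against 32 of 38 had one within 1 kb of the start. These counts were 5 and 37 within 2 kb, and 1 and 32 without peaks narrower than 900 bp. Mean peak cover was 12.2% in the Siglec genes and 75.7% in the zinc finger genes, whose lowest value was 34.6%.

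The ranges touched only at the top of the Siglec genes. SIGLEC7 scored above 19 of the 38 zinc finger genes and SIGLEC9 above 11, while the other 8 Siglec genes scored below all 38. In peak cover SIGLEC7, SIGLEC9 and CD33 each exceeded 1 of the 38. The highest zinc finger scores were 249 (241 to 256) for ZNF649, 218 (211 to 226) for ZNF614 and 212 (207 to 217) for ZNF577, and the lowest were 101 (97.4 to 106) for ZNF534, 105 (101 to 110) for ZNF600 and 108 (104 to 113) for ZNF525. The 3 zinc finger genes nearest to the Siglecs, ZNF577, ZNF649 and ZNF613, had 99.1%, 95.5% and 77.9% of their length in peaks. The intervals of 6 of the 38 overlap another one and share reads.

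Peak cover stepped up near the first zinc finger gene and not at the last Siglec gene: the 50 kb bin from 52300001 held 46.2% in peaks and the next one 90.4%. Bins of 50 kb in the Siglec window had a median of 16.4% in peaks (2.30% to 33.3%), against 73.0% (14.4% to 94.3%) in the window that follows. Between 52200001 and the first zinc finger gene, ZNF577, 28.7% of the sequence lay in peaks. That stretch holds HAS1, a hyaluronan synthase, at 119 (112 to 125) with 65.6% in peaks, and the formyl peptide receptors of phagocytes: FPR1 at 98.1 (90.4 to 106) with no peak, FPR2 at 66.1 (61.0 to 71.4) with 20.4% and FPR3 at 110.4 (107 to 114) with 39.3%. From ZNF577 to 54100000 peaks covered 71.4% of the sequence. Median peak width was 1200 bp in the Siglec window and 1800 bp in the window that follows, and the widest peaks there were 11250 and 33300 bp. On the other side, the kallikrein stretch from 51300001 to 51600000 had 26.5% in peaks, and its 15 kallikrein genes, which encode secreted proteases, had a median score of 91.0 with 10 overlapped by a peak.

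**Figure D4:**
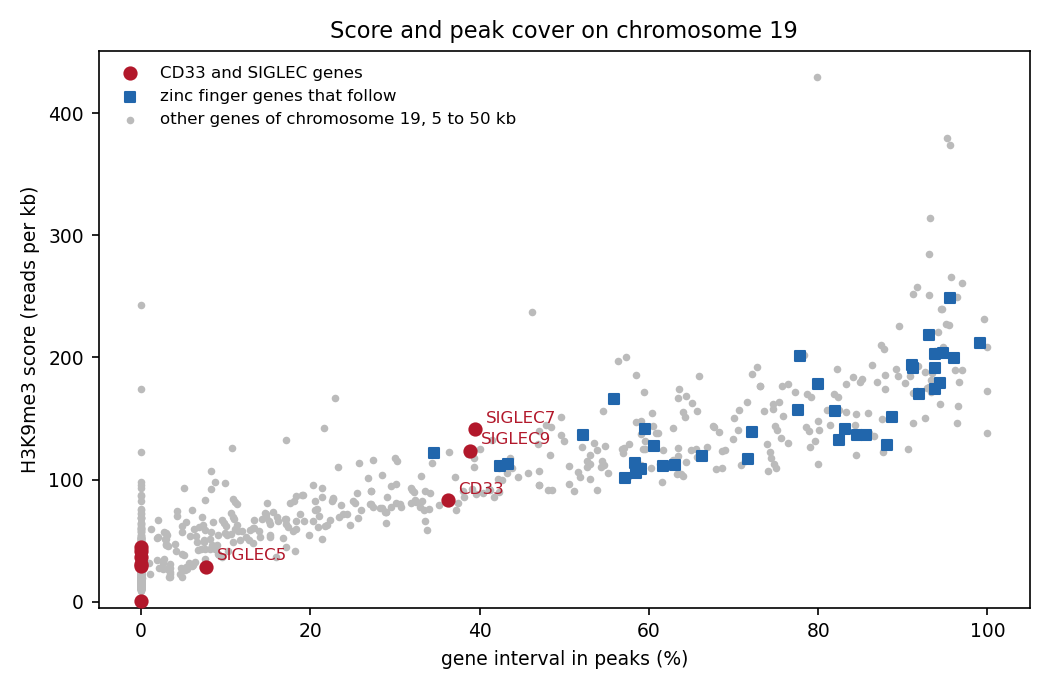
Score in reads per kb (y axis) against the percent of the gene interval in peaks (x axis) for CD33 and the SIGLEC genes (red circles), the 38 zinc finger genes that follow (blue squares) and other genes of chromosome 19 of 5 to 50 kb, zinc finger genes elsewhere included (grey). SIGLEC7, SIGLEC9 and CD33 stand at 36.3% to 39.5% cover, at the low end of the zinc finger genes, and the other Siglec genes at 0% to 7.69%.

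The 5 genes of chromosome 19 most like CD33, by the distance between log2(score + 1) and cover fraction among 1080 symbols of 5 to 50 kb, were KIR2DS4, LAIR2, GP6, KLK14 and PSMC4. KIR2DS4 scored 82.5 with 33.2% in peaks, LAIR2 81.0 with 36.3%, GP6 83.1 with 32.4%, KLK14 82.0 with 32.5% and PSMC4 80.6 with 37.5%. KIR2DS4, LAIR2 and GP6 encode immunoglobulin-like proteins of leukocytes or platelets, KLK14 is a kallikrein of the stretch before SIGLEC9, and PSMC4 is a proteasome subunit. KIR genes occur in near-identical copies, so the reads of KIR2DS4 are uncertain.

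Siglec genes outside the 10, SIGLECL1 apart, scored 26.4 to 48.9 reads per kb. CD22, the B cell Siglec of chromosome 19, scored 43.8 (40.8 to 47.0) and MAG, the myelin Siglec beside it, 30.4 (28.1 to 32.8), both without a peak. SIGLEC1, the macrophage receptor sialoadhesin on chromosome 20, scored 48.9 (45.9 to 52.1) with 8.18% in a peak, and SIGLEC15, a receptor of osteoclasts on chromosome 18, 30.8 (28.2 to 33.6) without one. SIGLEC16, an activating copy of SIGLEC11, scored 26.4 (22.2 to 31.2) without a peak.

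Genes for making, linking and removing sialic acid and for Siglec signalling had a median score of 33.8 reads per kb over 39 genes, with 14 above the median of all symbols. A peak overlapped 21 of them, 53.8%, against 36.8% of all symbols, but many are long, and 5 had 10% or more of their length in peaks. ST8SIA3, ST8SIA2 and ST8SIA5, sialyltransferases that build chains on brain glycans, were highest at 121 (115 to 126), 85.7 (83.6 to 87.7) and 80.7 (78.7 to 82.7). The lowest were HCST and TYROBP, adaptors of activating receptors, at 10.6 (6.38 to 16.6) and 12.3 (9.07 to 16.3), and ST6GALNAC4 at 12.7 (10.5 to 15.2). The phosphatases PTPN6 and PTPN11 scored 22.6 (20.2 to 25.1) and 18.8 (17.9 to 19.7) without a peak.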

How the data were processed

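H3K9me3 chromatin of KBM7 cells was sequenced in 1 library. Per the submitters' processing notes, Bowtie2, MACS and hg19 were used, with no version, role, read filter or use of IgG stated. The authors deposited raw read counts per gene interval and a score, a signal in reads per kb that equals reads over length, not scaled to depth (the largest difference was 3.03e-06). They also deposited 126965 peaks by position only, all on a grid of 150 bp. Counts over the 40237 intervals sum to 78512210, with some reads counted more than once; library depth is unknown, and reads are not separate molecules. The interval with the highest score stood for each symbol. Intervals are exact Poisson, and exact conditional binomial for ratios of summed scores, at 95%. Interval arithmetic and Poisson intervals were tested on simulated data. With 1 library no p-value was computed. Promoter windows came from RefSeq on GRCh38.p14. Named genes are the 10 members, the other intervals of their window and those up to ZNF577, the 3 highest, 3 lowest and 3 nearest zinc finger genes, other Siglecs, a fixed sialic acid list and 5 genes like CD33. The members and lists were chosen with earlier results of these data known. Alternatives changed the interval per symbol, the peak width, overlap and start windows, and the genes included. The tools were biopython 1.88, scipy 1.17.1, pandas 2.3.3, numpy 2.4.6, matplotlib 3.10.9 and Python 3.11.15.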

Additional observations from a re-analysis of the deposited data

How the results depend on the processing

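Of 43 alternative values 18 stayed within a set bound, among them all 5 with the longest interval of each symbol, and 25 moved; the Siglec genes stayed below the zinc finger genes in summed score in each that compared them. The bound was the 95% Poisson interval for scores, the exact binomial interval over windows of 150 bp for peak cover and 1.5 times for counts. Short intervals with few reads, among them SIGLEC14 with 4, have wide Poisson intervals. Without SIGLEC11 the Siglec median was 41.8 reads per kb, the summed score 57.8, the summed peak cover 14.7% and the zinc finger over Siglec ratio of summed scores 2.61, against 2.95 as reported. Without SIGLEC5, SIGLEC14 and SIGLEC11, whose reads may be hard to place, these were 45.1, 74.5, 18.9% (against 10.2% as reported) and 2.02, with a mean peak cover of 16.4%. Without CD33 they were 36.3, 47.97, 7.61% and 3.14, with a mean cover of 9.57%. By construction these alternatives use fewer genes. SIGLEC5 without the span of AC018755.13, chosen after seeing the data, gave a median of 43.5 and, with SIGLEC14 left out, a summed score of 57.9. The 20 zinc finger genes starting below 53200000, all with a peak, had a median of 168, a summed score of 161, a mean cover of 78.6% and a ratio to the Siglec genes of 3.16. Without peaks narrower than 900 bp the mean zinc finger cover was 73.3%, the Siglec window had 16.5% in peaks and 1 Siglec gene had a peak at its start; within 2 kb of the start 5 had one. No paired analysis was possible because there is 1 library.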
